A study of Mus musculus with 2 samples.

Results

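The replication-dependent histone genes were taken as the protein-coding genes of GENCODE M21 whose symbols begin with Hist1h, Hist2h, Hist3h or Hist4h. There were 67 such genes among 21911 protein-coding genes on chromosomes 1 to 19, X and Y. By the type of histone in the symbol, 6 encode linker histone H1, 18 encode H2A, 18 encode H2B, 12 encode H3 and 13 encode H4. By cluster, 54 belong to Hist1 on chromosome 13, 10 to Hist2 on chromosome 3, 2 to Hist3 on chromosome 11 and 1, Hist4h4, stands alone on chromosome 6. The data were DNase-seq of tissue labelled as layer of hippocampus, with no layer named. The tissue came from male B6CASTF1/J mice aged 14 days, first-generation offspring of the C57BL/6 and CAST/EiJ strains. There was 1 group of 2 biological replicates, and the label of each speaks of 3 males. Both carry the same donor identifier, and how the animals were divided between them is not labelled, so the difference between replicates may be technical in part. With a single group there was no condition to compare, and each value is given in both replicates.

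Core histones H2A, H2B, H3 and H4 form the nucleosome, and H1 binds the linker DNA between nucleosomes. The clustered genes are transcribed mainly in S phase, when new DNA has to be packed, and their mRNAs end in a conserved stem-loop in place of a poly(A) tail. Most cells of the hippocampus at this age are neurons and glia that have left the cell cycle, while neural progenitors of the dentate gyrus still divide. Whether the tissue sampled holds those progenitors is not labelled. Because the tissue was measured in bulk, fewer cells with an open promoter and less cutting per cell cannot be told apart.

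DNase I cuts DNA that is not covered by nucleosomes, so a peak marks open chromatin and a footprint is a short stretch within it that is protected from cutting. Replicate 1 had 115072 peaks and 285181 footprints, and replicate 2 had 95711 peaks and 244137 footprints. A promoter was the DNA within 1000 bp of any annotated start site, and its value is the authors' value of the highest peak that meets it. The authors did not state how that value is scaled, so it serves to rank peaks within a replicate. The median promoter value over all genes with a peak was 2.46 in replicate 1 and 3.13 in replicate 2. Of 8 markers of hippocampal neurons, 7 had a promoter peak in both replicates, as did 4 of 5 markers of cycling progenitors. The share among all protein-coding genes was 62.6%. The neuron marker Slc17a7 had a peak in replicate 1 only, and the progenitor marker Eomes had none. None of the 5 markers of other tissues (Alb, Cd3e, Ckm, Hba-a1 and Ddx4) had a promoter peak in either replicate.

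The sequences that follow are footprints found in both replicates, chosen to show footprints with a promoter motif in each histone type. Each is the footprint of replicate 1 with 5 bp added to each side, read 5′ to 3′ on the strand of the gene from the mm10 reference. The motif, in capitals, was sought in the footprint with the added bases. The TATA box of Hist1h1e begins in the added bases, so it lies only partly inside the footprint. The motifs were the TATA box TATAAA, the CCAAT box CCAAT, the core GGTCCG of the element of H4 promoters that the factor HINFP binds, and the GC box GGGCGG, each searched on both strands. A CCAAT box on the opposite strand therefore reads ATTGG, and a GC box reads CCGCCC.
Hist1h4c, chr13:23698471-23698512, minus strand: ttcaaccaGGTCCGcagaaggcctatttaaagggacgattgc
Hist1h4i, chr13:22041374-22041420, minus strand: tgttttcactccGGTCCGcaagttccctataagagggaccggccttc
Hist2h2aa2, chr3:96240277-96240335, minus strand: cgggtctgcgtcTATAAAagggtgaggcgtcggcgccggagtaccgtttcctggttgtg
Hist2h2aa2, chr3:96240343-96240365, minus strand: gtgagCCAATgagagcgtcgggc
Hist1h2bp, chr13:21787369-21787400, plus strand: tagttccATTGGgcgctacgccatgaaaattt
Hist1h3e, chr13:23562425-23562459, minus strand: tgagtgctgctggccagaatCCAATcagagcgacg
Hist1h1e, chr13:23622548-23622586, minus strand: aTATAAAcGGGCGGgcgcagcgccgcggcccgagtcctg
Hist1h1a, chr13:23763623-23763657, plus strand: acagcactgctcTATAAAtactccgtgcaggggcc
The H4 footprints ran from -53 to -22 of the annotated start in Hist1h4c and from -53 to -17 in Hist1h4i. Both covered the whole H4 core and bases downstream of it, and ended before the start site. In replicate 2 the footprints over the same sites were chr13:23698478-23698513 and chr13:22041384-22041426. The CCAAT stretch shown for Hist2h2aa2 also stands upstream of its near copy Hist2h2aa1. From 250 bp before to 50 bp after the Hist2h2aa2 start, 11.5% of 31-base words occur once in the mouse genome. Which copy the Hist2h2aa2 footprints belong to is therefore uncertain.

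Most histone promoters were open in both replicates. A promoter peak was present in both for 58 of the 67 genes, or 86.6%, against 62.6% of all protein-coding genes. No histone gene had a peak in 1 replicate only, and 9 had none. The same 58 genes had at least 1 footprint within 1 kb of a start site in both replicates, against 61.1% of all protein-coding genes. In the shorter peak list that the authors deposited for each replicate, 55 of 67 had a promoter peak in both, against 57.7% of all genes. The 3 genes missing there were Hist1h2af, Hist1h3d and Hist2h3c2.

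Open promoters were found in every type and every cluster. All 13 H4 genes had a peak in both replicates, as did 11 of 12 H3 genes, 15 of 18 H2A genes, 15 of 18 H2B genes and 4 of 6 H1 genes. In Hist1 the count was 46 of 54, in Hist2 9 of 10 and in Hist3 2 of 2, and Hist4h4 had a peak too. The base composition of these promoters was CpG-rich, and 54 of 67 had a ratio of observed to expected CpG between 0.75 and 1 in the 500 bp either side of the 5′ end. Of those 54, 49 had a promoter peak in both replicates, and among all genes in this CpG band 96.4% did. The share of open histone promoters was thus higher than that of all genes, but not higher than that of genes in the same CpG band. The histone genes of this band without a peak were Hist2h3c1, Hist1h2bq, Hist1h2ao, Hist1h2ap and Hist1h2br. At most 19.3% of the 31-base words of their promoter windows occur once in the mouse genome. For them a closed promoter and unplaced reads cannot be told apart, so a shortfall against the band is not shown.

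The promoter values of the histone genes lay near the middle of all genes with a promoter peak. Their median was 2.25 in replicate 1 and 2.40 in replicate 2, and their median percentile among genes with a peak was 45.8 and 38.3. Of the 58, 18 lay above the median of all genes in both replicates, 32 below it in both, and 8 above it in 1 replicate only. Neighbouring genes often shared a peak: the 58 genes drew on 46 distinct peaks in each replicate, and 11 of those peaks served 23 genes, so the genes are not independent points.

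**Figure D1:**
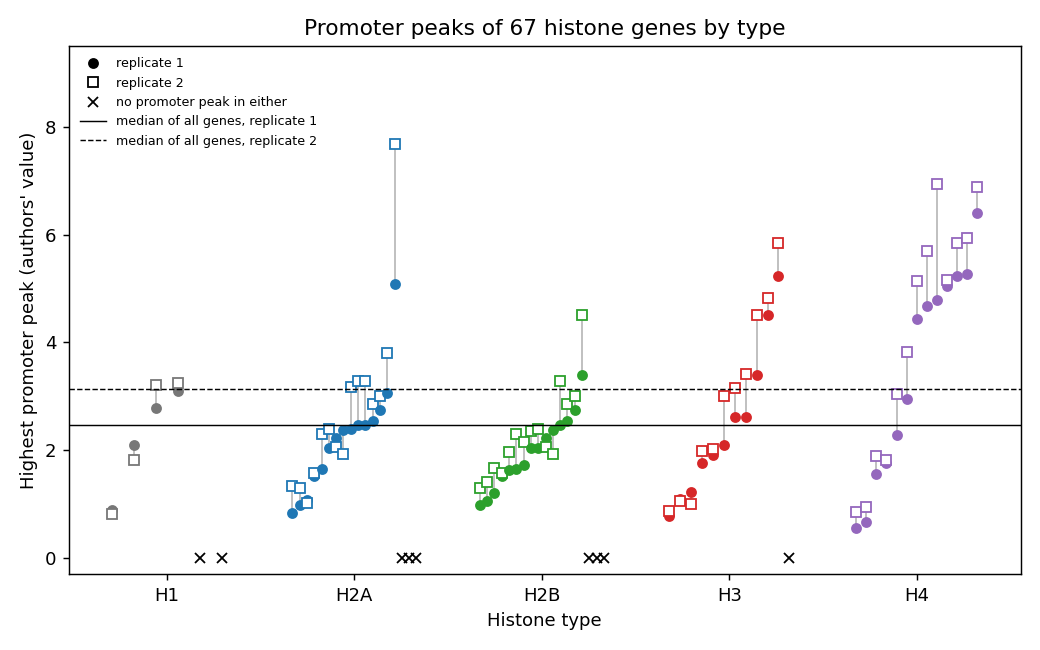
Each column of points is 1 gene, with the authors' value of its highest promoter peak in replicate 1 (filled circle) and replicate 2 (open square), grouped by histone type. Crosses at 0 are the 9 genes with no promoter peak in either replicate, and the horizontal lines are the medians of all genes with a promoter peak, 2.46 and 3.13. Of the 13 H4 genes, 8 lie above the line of their replicate in both.

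H4 genes had the highest median promoter value of the 5 types, 4.44 in replicate 1 and 5.14 in replicate 2, with median percentiles of 83.4 and 78.9. H4 is the most conserved core histone and pairs with H3 in the nucleosome. Hist1h4c was the highest histone gene of replicate 1, with 6.39 in replicate 1 and 6.89 in replicate 2. Hist1h4i had 4.79 and 6.94. Hist4h4, the lone gene of chromosome 6, had 5.28 and 5.94. These 3 genes and Hist1h4a, with 5.24 and 5.85, were the H4 genes with the highest means. Hist2h4, the only H4 gene of the Hist2 cluster, had 5.04 and 5.16. The 13 H4 genes were not uniform, and 5 lay below the median of all genes in both replicates. The lowest were Hist1h4m, with 0.665 and 0.954, and Hist1h4n, with 0.552 and 0.848. Only 4.06% and 4.01% of the 31-base words of their promoter windows occur once in the mouse genome, and the part of this in the low values was not tested. Hist1h4a held the most footprints of the type, 14 and 19.

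H3 genes had a median promoter value of 2.10 in replicate 1 and 3.00 in replicate 2. With the nearest peak in place of the highest, the medians were 1.92 and 2.03. Hist1h3a took its value, 5.24 and 5.85, from the peak of its neighbour Hist1h4a, whose middle lies 1035.5 bp from the Hist1h3a start. The peak nearest to the start of Hist1h3a had a value of 0.997 in replicate 1 and 1.32 in replicate 2, so its place at the top of the type rests on the neighbour's peak. Hist1h3e, which carries a peak at its own start, had 4.50 and 4.83. Hist2h3b had 3.39 and 4.51, again from a peak more than 500 bp away that it shares with Hist2h2bb. Hist1h3b had 2.62 and 3.41 from a peak centred 3.5 bp from its start. Hist2h3c2 was the lowest H3 gene with a peak, at 0.778 and 0.864, and 20.3% of its 31-base words occur once. These values come from different peaks. The peak of replicate 2 is centred at -509.5 bp, and the peak over the start of Hist2h3c2 had 0.611 in that replicate. Hist1h3a held the most footprints of the type, 11 and 14.

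H2A genes, whose protein forms a dimer with H2B, had a median promoter value of 2.37 and 2.40. Hist2h2aa2 stood above the other H2A genes, with 5.09 in replicate 1 and 7.68 in replicate 2. The H2A gene next in order was Hist2h2aa1, with 3.05 and 3.81. Hist2h2aa2 and Hist2h2aa1 are near copies, and 40.5% and 43.2% of the 31-base words of their windows occur once, so the split of reads between them is uncertain. The following means in order were those of Hist1h2ad, at 2.74 and 3.00, and of Hist2h2ab and Hist2h2ac, which share a peak of 2.46 and 3.28. That peak lies at the start of Hist2h2ab, and its middle is 939.5 bp from the Hist2h2ac start in replicate 1. The peak nearest to the Hist2h2ac start had 2.33 and 2.40. Hist3h2a had 2.39 and 3.18. Hist2h2ac held the most footprints of any histone gene in replicate 1, 20, and held 17 in replicate 2.

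H2B genes had a median promoter value of 2.05 and 2.14. Hist2h2bb was the highest, with 3.39 and 4.51 from a peak centred 31.5 bp upstream of its start in replicate 1. Hist1h2bf had 2.74 and 3.00, and Hist1h2bp had 2.55 and 2.86. Hist2h2be had 2.46 and 3.28, but from the peak of Hist2h2ab, whose middle lies at -1178.5 bp in replicate 1, and the peak that covers its own start had 2.33 and 1.94. Hist3h2ba had 1.73 and 2.14 and held the most footprints of the type, 18 and 12. The annotated start of Hist1h2be lies 35168 bp from its start codon, beside Hist1h1e. Its value there was 2.05 and 2.35, and within 1 kb of the start codon it was 1.39 and 1.70.

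Linker histone genes were fewest and the 4 with a peak had a median of 2.44 and 2.52. Hist1h1c had 3.10 and 3.24, from a peak 992.5 bp from its start in both replicates. The peak at the start of Hist1h1c had 2.72 and 3.02. Hist1h1e had 2.79 and 3.20 and the most footprints of the type, 11 and 9. Hist1h1a had 2.09 and 1.83, and Hist1h1b, at 0.891 and 0.823, was the lowest H1 gene with a peak.

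The 9 histone genes with no promoter peak also had no footprint within 1 kb of a start site in either replicate. They fell into 3 kinds by sequence and by known role. Hist1h1t, Hist1h2aa and Hist1h2ba encode histones known from the male germ line, and none of the 3 had a promoter peak in either replicate, also with the window widened to 2500 bp. Their windows can be placed on the genome: 100% of the 31-base words of the Hist1h1t window and 89.0% of those of the Hist1h2aa and Hist1h2ba windows occur once. Their CpG ratios were 0.438, 0.649 and 0.681, lower than the median of 0.876 over the 58 genes with a peak. The ratios of those 58 ranged from 0.521 to 1.10, so Hist1h2aa and Hist1h2ba lay within their range. The part of CpG content in the missing peaks was not tested.

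Hist1h2bq, Hist1h2ao, Hist1h2ap and Hist1h2br lie in a repeated stretch of the Hist1 cluster, and 0% of the 31-base words of their windows occur once. Hist2h3c1, an H3 gene of the Hist2 cluster, had 19.3%. How reads that match several places were treated is not given in the sources used here, so for these 5 genes a closed promoter and unplaced reads cannot be told apart. With the window widened to 2500 bp, these 5 genes and Hist1h1d had a peak in both replicates. For the 5 genes that window takes in promoter peaks of neighbours. They are those of Hist1h4m for Hist1h2bq and Hist1h2ao, of Hist1h4n for Hist1h2ap and Hist1h2br, and of Hist2h2aa1 for Hist2h3c1. The wider window therefore does not show that their own promoters are open.

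Hist1h1d, a linker histone gene expressed in many cell types, had no peak within 1000 bp of its annotated start. That start lies 1828 bp upstream of its start codon, in DNA with a CpG ratio of 0.115. Within 1 kb of the start codon there was a peak of 1.57 in replicate 1 and 1.83 in replicate 2, with 9 and 5 footprints. Counted around start codons, 59 of 67 histone genes had a peak in both replicates.

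**Figure D2:**
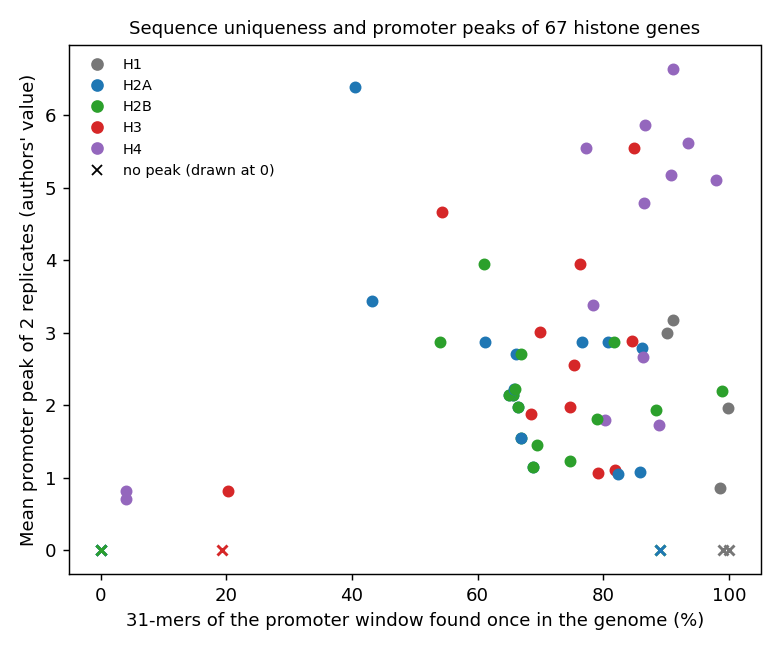
Each point is 1 histone gene, placed by the share of 31-base words of its promoter window that occur once in the genome (horizontal, percent) and by the mean promoter value of the 2 replicates (vertical), with crosses at 0 for genes with no peak. Some points of paired genes coincide. Of 10 genes under 50%, 5 have no peak, and of 57 above it, 53 have a peak in both replicates.

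Of the 10 genes with fewer than 50% of such words, 5 had a peak in both replicates, and of the 57 others, 53 did. The part of uniqueness in the promoter values was not tested.

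The Hist1 cluster lies in 2 blocks on chromosome 13, separated by 1487 kb. The first holds 23 genes over 328 kb at chr13:21715763-22043676, and 19 of them had a promoter peak in both replicates. The second holds 31 genes over 404 kb at chr13:23531050-23934851, and 27 of them had one. Median promoter values were 1.77 and 1.82 in the first block and 2.09 and 2.40 in the second. Peaks were dense in both blocks: 210 and 189 per Mb in the first and 131 and 109 per Mb in the second, against 42.2 and 35.1 per Mb genome-wide. Between the blocks the density was 49.8 and 49.1 per Mb, and 4 of the 39 other protein-coding genes there had a promoter peak in both replicates. The Hist2 cluster, 50.3 kb at chr3:96219865-96270132, had 279 and 298 peaks per Mb. In the second block, 38 of 53 peaks of replicate 1 and 34 of 44 of replicate 2 met a histone promoter, whereas in the first block it was 27 of 69 and 26 of 62.

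**Figure D3:**
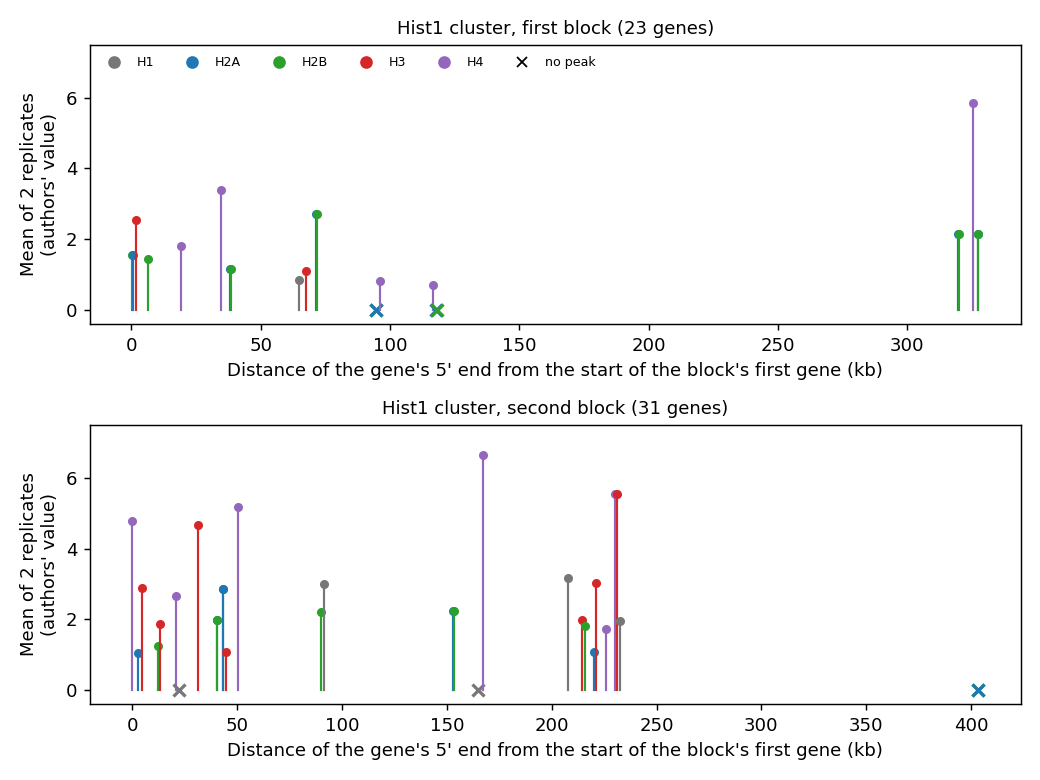
Vertical lines give the mean promoter value of the 2 replicates (authors' value) for the 54 Hist1 genes, against the distance of each gene's 5′ end from the start of its block (kb), with 23 genes in the upper panel and 31 in the lower. Colours are histone types, crosses are genes with no peak, and the symbols of paired genes overlap. The highest line is Hist1h4c, with 6.39 and 6.89 in the 2 replicates.

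H2A and H2B genes often stand head to head and share the DNA between their starts. There were 13 divergent pairs with starts within 1 kb of each other, of which 12 joined an H2A and an H2B gene and 1 joined Hist1h2bh to Hist1h3f. Starts lay 176 to 660 bp apart. A peak met the stretch between the starts in both replicates in 10 pairs. The other 3 were Hist1h2bq with Hist1h2ao, Hist1h2ap with Hist1h2br, and the testis pair Hist1h2ba with Hist1h2aa. The 5 closest pairs were all H2A with H2B. Hist1h2ae and Hist1h2bg, 176 bp apart, had a peak between them of 1.44 and 2.13. Hist1h2bf and Hist1h2ad, 185 bp apart, had 2.74 and 3.00. For Hist1h2ap and Hist1h2br, 236 bp apart, none was listed, as above. Hist2h2ac and Hist2h2be, 239 bp apart, had 2.33 and 1.94. Hist1h2an and Hist1h2bp, 243 bp apart, had 2.55 and 2.86. Of these, Hist1h2bf with Hist1h2ad was the highest in both replicates.

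The stretch between Hist1h2bf and Hist1h2ad is shown because it carries the highest peak among these pairs and 4 CCAAT boxes in 184 bp. It is read on the plus strand, with the CCAAT boxes in capitals on either strand.
Hist1h2bf-Hist1h2ad, chr13:23574197-23574380, plus strand: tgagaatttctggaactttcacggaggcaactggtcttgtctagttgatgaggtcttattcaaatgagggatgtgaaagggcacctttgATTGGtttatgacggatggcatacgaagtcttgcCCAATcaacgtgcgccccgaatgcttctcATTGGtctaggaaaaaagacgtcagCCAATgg
Each of the 13 pairs held between 2 and 5 CCAAT boxes between its starts, including the 3 pairs without a peak.

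Around the 5′ ends of the 58 genes with a peak, cutting was concentrated at the start site. In the 50 bp on the downstream side of the start, 96.6% of bases in replicate 1 and 98.0% in replicate 2 lay in stretches whose cut rate passed a false discovery rate under 0.05. At 1000 bp upstream the share was 24.3% and 17.1%. Footprints were densest over the same place, with 41 and 42 in the 50 bp just upstream of the starts and 4 and 5 in the bin at -1000. Over all windows, a median of 41.9% and 37.0% of bases lay in such stretches, against 48.9% and 46.7% for all genes with a promoter peak.

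**Figure D4:**
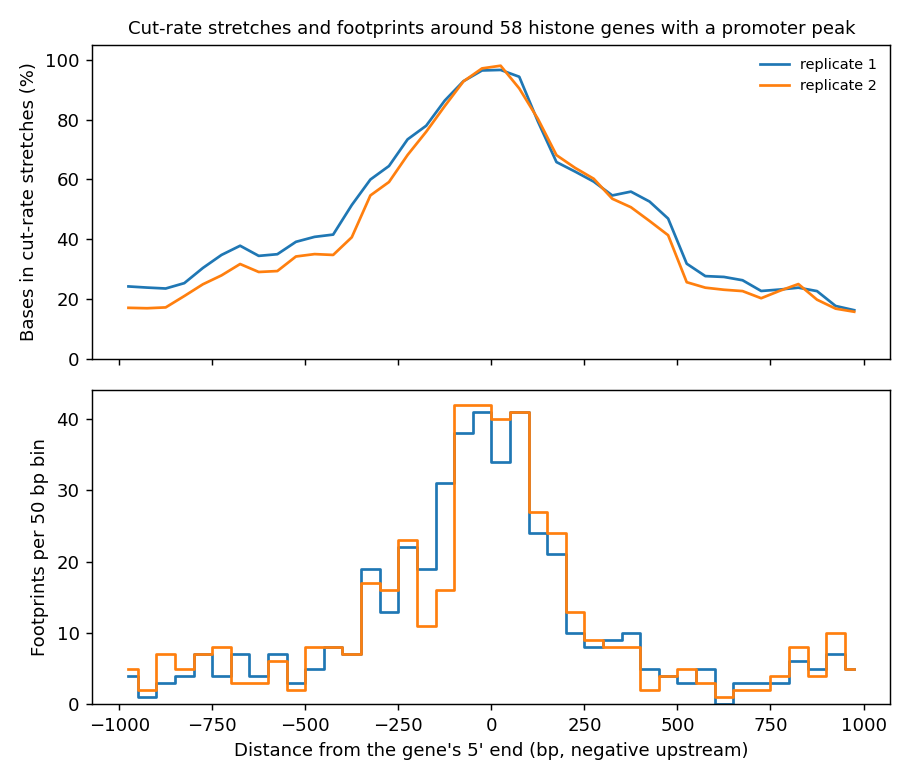
The upper panel gives the share of bases in listed cut-rate stretches (percent) and the lower panel the number of footprints per 50 bp bin, against the distance from the gene's 5′ end (bp, negative upstream), for the 58 histone genes with a promoter peak, 1 line per replicate. Both replicates peak at the start, at 96.6% and 98.0% of bases in the bin downstream of it.

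The histone windows held 338 distinct footprints in replicate 1 and 341 in replicate 2, with a median width of 9 bp in both. Of these, 84.9% in replicate 1 and 83.6% in replicate 2 met a listed peak, and the rest did not. In 45.0% and 43.4% of the histone footprints, at least 50% of the length was also footprinted in the other replicate. The shares for footprints at all promoters were 44.0% and 42.8%. The same start and end recurred in 2.07% and 2.05% of the histone footprints, against 2.55% and 2.51% at all promoters. The number of footprints per gene was less alike between replicates than the promoter value. Across the 58 genes, Spearman's rho was 0.952 for promoter values and 0.794 for footprint counts plus 1. Over the 46 distinct peaks it was 0.963, and over 13721 genes with a peak in both it was 0.980. Genes within a library share its depth, and neighbours share peaks, so these are descriptions with no test. On the authors' scale, which may differ between replicates, the value was higher in replicate 2 for 49 of the 58 genes and for 12725 of the 13721, with median ratios of 1.16 and 1.25.

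The share of promoters with a motif differed between the histone types. Promoters here ran from 250 bp before to 50 bp after the 5′ end, and a match describes letters in this window only. Divergent genes share the DNA between their starts, so 1 site can be counted for both genes of a pair. The CCAAT box, a site of NF-Y, was in 83.6% of histone promoters and 39.0% of all promoters. It was in all 18 H2A and all 18 H2B promoters, in 11 of 12 H3 and 5 of 6 H1 promoters, and in 4 of 13 H4 promoters. The TATA box was in 55.2% of histone promoters against 12.6% of all. The octamer ATTTGCAT, which OCT1 binds, was in 7 H2A and 8 H2B promoters and in none of H1, H3 or H4. Of all promoters, 1.57% held it. A single octamer was counted for both genes in the pairs Hist2h2ac with Hist2h2be, Hist1h2ah with Hist1h2bk, and Hist1h2ae with Hist1h2bg. The same held for Hist1h2ac with Hist1h2bc and for Hist1h2ba with Hist1h2aa. The H1 box AAACACA was in 4 of 6 H1 promoters, and also in 1 H2A, 3 H2B and 1 H3 promoters. That was 13.4% of histone promoters, against 6.39% of all. The H4 core GGTCCG was in 12 of 13 H4 promoters, in 1 H2B and 2 H3 promoters, and in 9.58% of all promoters. Of the H4 genes, Hist1h4a had no match. E2F sites (TTTCGCGC, TTTGGCGC or TTTCCCGC, the last of which can overlap a GC box) were in 17.9% of histone promoters and 2.30% of all. The GC box differed little in share, at 41.8% against 43.0%, but 10 of 13 H4 promoters held it. The consensus site of NRF1 was in none of the 67 and in 1.22% of all promoters.

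**Figure D5:**
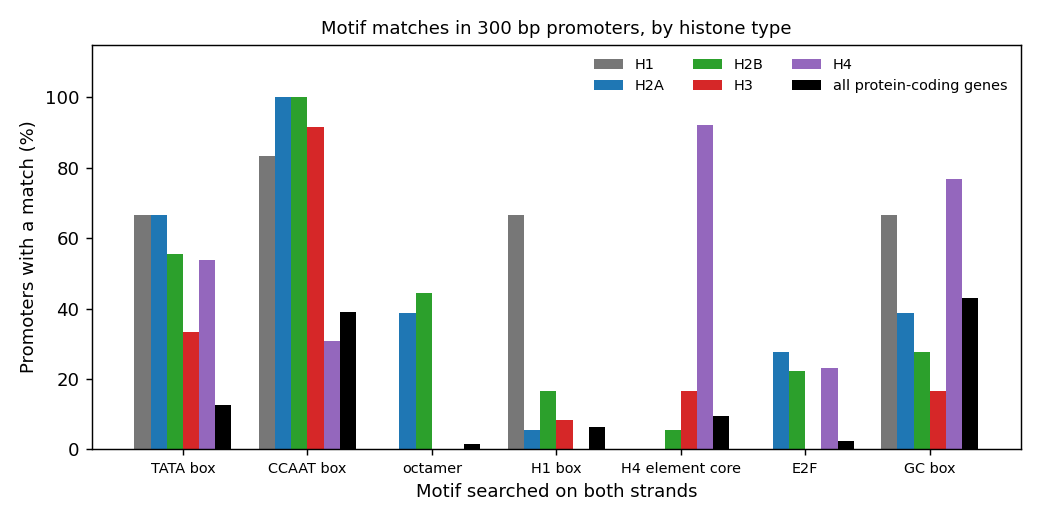
Bars give the share of promoters with at least 1 match on either strand (percent, from 0) for 7 motifs, with 1 colour per histone type and black for all 21911 protein-coding genes. The H4 element core stands out in H4 (12 of 13 promoters) and the CCAAT box in H2A and H2B (18 of 18 each). Divergent H2A and H2B genes share some of these sites.

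Some of these motifs lay inside footprints. With 5 bp added to each side, the H4 core lay inside a footprint in 6 of the 12 H4 promoters that hold it in replicate 1 and in 10 in replicate 2. It did so in both replicates in 5: Hist2h4, Hist4h4, Hist1h4i, Hist1h4c and Hist1h4b. Hist1h4f was the only 1 of the 12 with no footprint over it in either. The core was in 2.07% and 2.93% of histone footprints, against 1.11% and 1.22% of footprints at all promoters. The TATA box was in 4.73% and 3.81% of histone footprints, against 0.199% and 0.190% of footprints at all promoters. The CCAAT box was in 6.51% and 6.45%, against 3.24% and 2.94%. No histone footprint held the octamer or the H1 box in either replicate, and both were rare in footprints at all promoters, at 0.0197% and 0.0252% for the octamer and 0.109% and 0.0823% for the H1 box. With 10 bp added, the H1 box was in 2 histone footprints of replicate 1 and 1 of replicate 2. The GC box was in 7.10% and 8.50% of histone footprints and in 13.2% and 13.8% of all. Histone promoters also hold TATA and CCAAT boxes more often than other promoters, and the part of that in the footprint shares was not tested.

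The promoter of Hist4h4 is shown because its H4 core lay inside a footprint in both replicates. Its 250 bp before the annotated start are read on the strand of the gene, with the H4 core and a GC box on the opposite strand in capitals.
Hist4h4, chr6:136804416-136804665, minus strand: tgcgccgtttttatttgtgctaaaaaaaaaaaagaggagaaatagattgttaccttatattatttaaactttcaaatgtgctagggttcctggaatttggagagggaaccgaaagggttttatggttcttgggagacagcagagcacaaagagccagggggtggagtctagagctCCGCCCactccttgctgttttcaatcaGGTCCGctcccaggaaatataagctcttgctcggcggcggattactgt
The H4 core of Hist4h4 begins 48 bp upstream of its start. In the 12 H4 promoters it began from 80 to 11 bp upstream.

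The stem-loop that ends these mRNAs was sought in the 200 bp after the stop codon, with either of the sequences below or the same sequence with another base after the run of T; capitals mark the whole element. It was found in 61 of 67 genes, a median of 31 bp after the stop codon.
Stem-loop of 41 genes: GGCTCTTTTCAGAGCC
Stem-loop of 8 genes: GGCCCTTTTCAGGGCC
The remaining genes with an element had another base at the variable position. The 6 genes without either form were Hist2h2be, Hist1h2an, Hist1h3g, Hist1h4j, Hist1h4b and Hist1h4a. All 6 had a promoter peak in both replicates. All 3 testis genes held the stem-loop.

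All 16 genes of a list for histone mRNA transcription and processing had a promoter peak in both replicates, against 62.6% of all protein-coding genes, with medians of 4.01 and 4.61. The highest were Npat, the coactivator of histone transcription, at 5.84 and 7.83, Lsm11, a component of the U7 particle that cuts histone mRNA, at 5.17 and 7.46, and Cpsf3, the nuclease that makes the cut, at 5.96 and 6.56. Hinfp, whose product binds the H4 element, had 4.40 and 5.46. All 16 histone chaperone genes had a peak in both, with medians of 3.86 and 4.66, led by Npm1 at 6.48 and 7.74, Daxx at 4.82 and 6.71, and Ubn1 at 5.13 and 6.12. All 16 DNA replication genes did too, with medians of 3.00 and 3.84, led by Mcm5 at 7.21 and 8.44, Top2a at 6.80 and 6.82, and Ccne1 at 4.94 and 6.47. The CpG content of these 3 lists was not compared with that of other genes, and the share of dividing cells was not measured.

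Many replacement and variant histones are made outside S phase as well as in it, and others are known from the germ line. Of 20 genes on the list 19 were matched by symbol, and 11 of them, or 57.9%, had a promoter peak in both replicates, a share near the 62.6% of all protein-coding genes, with median values over genes with a peak of 3.39 and 4.58. The highest were H2afv at 5.95 and 8.94, H2afx at 5.37 and 6.63, and H2afj at 5.85 and 5.98. H3f3a and H3f3b, both of which encode H3.3, had 3.33 and 4.58 and 3.80 and 4.23. Hils1, a spermatid linker histone, had a peak in replicate 1 only, at 0.566. The 7 with none in either replicate were H1foo, H1fnt, H2bfm, H2al1a, H2afb1, H2afb2 and H2afb3.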

How the data were processed

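Peaks, footprints and cut-rate stretches were deposited by the authors for each replicate on mm10. Which aligner and caller they used is not given in the sources used here. The deposited signal of a peak has no stated scaling. The p-values deposited by the authors are false discovery rates, listed under 0.05 for cut-rate stretches and constant at 0.01 for footprints. The longer of the 2 peak lists was used.

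Genes were those of the GENCODE M21 basic set, joined by symbol, and sequence came from GRCm38.p6, which is mm10. A peak or footprint met a promoter if it shared at least 1 bp with the window. Uniqueness was the share of 31-base words found once on the primary chromosomes, either strand. Genes of 1 block lay within 500 kb of the previous one. Overlap, motif and word counting were tested on simulated data. Scripts used Python 3.11.15, numpy 2.4.6, scipy 1.17.1 and numba 0.67.0. With 1 group of 2 replicates no test was possible.

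The genes and lists were chosen with earlier results of these data known. Named in each type were up to 4 genes with the highest mean value, all without a peak, all of Hist2, Hist3 and Hist4, the gene with the most footprints, the 5 closest pairs and the testis genes. From each list the rule took up to 3 of the highest and those with no peak. Hinfp, H3f3a, H3f3b and the genes at the low end of a type were named after their values were seen. Windows of 500 and 2500 bp, other start sites, the shorter list and leaving out a replicate were the alternatives.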

Additional observations from a re-analysis of the deposited data

How the results depend on the processing

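The count of 58 histone genes open at the promoter in both replicates was 55 in the shorter list (57.7% of all genes). With a 2500 bp window it was 64 (65.4% of all genes), and with peaks at or above the median of the list 57 (57.9%). Around start codons it was 59, where the share of all genes was not computed. It was 58 without replicate 1 (64.1% of all genes), without replicate 2 (64.6%) and with a 500 bp window (61.0%). The 5′ end of the gene record only (59.6% of all genes) and the middle of the peak in the window (62.3%) also gave 58. So did the comprehensive annotation (64.4%). The counts by type and by cluster stayed within 1.5 times of those reported. Most genes of each group already had a peak, so no rise could pass that limit. In the shorter list H3 fell from 11 to 9 of 12, H2A from 15 to 14 of 18, Hist1 from 46 to 44 of 54 and Hist2 from 9 to 8 of 10. With a 2500 bp window H1 rose from 4 to 5 of 6, H2A and H2B from 15 to 17 of 18, and H3 from 11 to 12. Hist1 then rose to 51 and Hist2 to 10. The start-codon, comprehensive-annotation and nearest-peak alternatives and the likeness over distinct peaks were chosen after seeing the data.

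The median promoter value became 2.46 and 3.02 with a 2500 bp window, and 2.23 in replicate 2 with the nearest peak. Footprints found in the other replicate were 53.8% and 54.0% when 1 bp sufficed, and 2.07% and 2.05% with the same start and end. The H4 core lay inside a footprint in 4 genes with 0 bp added and in 12 with 10 bp in replicate 1, counting every histone type, where 7 was found with 5 bp. With 0 bp in place of 5 bp added, genes with a TATA box in a footprint went from 15 to 8 and from 13 to 7 in replicates 1 and 2, those with a GC box from 20 to 12 and from 25 to 14, and those with a CCAAT box from 17 to 12 and from 17 to 7. The CCAAT share of histone footprints in replicate 2 was then 2.35%, against 1.04% at all promoters. The rank correlation of the replicates was 0.963 over distinct peaks and 0.937 with the nearest peak. The cause was not tested in any of these.

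Depth is unknown, since the files give no reads, so an unlisted peak is not shown to be absent. No paired analysis was possible because there was 1 group.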
